A study of Mus musculus with 9 samples.

Results

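Kinesins are motor proteins that use ATP to move along microtubules or to take them apart, and their mRNAs were followed here in testes of wild type mice and of mice without the transcription factor RFX2. The genes were chosen by name, as all genes of the deposited count table whose symbol begins with Kif and a digit, or with Kifc or Kifap, and which held at least 10 counts over the 9 libraries. There were 44 such genes among 23074 in the table, and 43 of them passed the filter on low counts and were tested with 15613 genes in all. Kif12 had 3 counts in all and was left out by the rule. Kif28 met the rule but failed the filter, with 1 to 4 counts in each wild type library and 11, 2, 4 and 1 counts in the Rfx2-/- libraries. At least 3 of the 44 do not encode motors of their own. Kifap3 encodes the accessory subunit of kinesin-2, Kif1bp encodes a protein that binds kinesins, and Kif4-ps is annotated as a transcribed pseudogene of Kif4.

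RNA-seq was performed on whole decapsulated testes at postnatal days 29 to 30 (P30), with 1 library per mouse, from 5 wild type and 4 Rfx2-/- mice. All mice were of a mixed background of C57BL/6, 129/Sv and FVB/N. The Rfx2-/- mice were homozygous for an allele that lacks exon 7, made in R1 ES cells of strain 129/Sv and deleted throughout the body with an ACTB-cre transgene. The study describes a mixed background line that kept a neomycin cassette in the allele, and the labels do not say whether the Rfx2-/- mice sequenced here carried the cassette.

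In a sperm cell, kinesins act at several places. Heterotrimeric kinesin-2 carries intraflagellar transport trains while the flagellum is built, kinesin-9 motors are found in motile axonemes, kinesin-13 and kinesin-8 members shorten microtubules, and kinesin-5, kinesin-6 and kinesin-14 members work on the spindle or at cell division. RFX factors bind the X-box, a motif common in promoters of ciliary genes.

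Of the kinesins, 6 (Kif6, Kif9, Kif18a, Kif23, Kif24 and Kifc3) are on the study's list of genes with an RFX2 peak at the promoter, and the promoters of the first 5 of these are shown because they are where binding was mapped. They were taken from RefSeq (GRCm38.p6), from 250 bases before to 50 bases after the start. Kifc3 has no entry in the promoter table used here. Capitals mark the full X-box, searched as GTNNCC, 1 to 3 bases and GGNNAC, which is its own reverse complement, or a single arm GTTGCC, searched on both strands and often lying inside a full X-box. The whole promoter is given for Kif6, which has neither motif (chr17:49614922-49615221, plus strand), and for a start of Kif9 (chr9:110476744-110477043, plus strand), where the full motif begins 27 bases before the start.
Kif6: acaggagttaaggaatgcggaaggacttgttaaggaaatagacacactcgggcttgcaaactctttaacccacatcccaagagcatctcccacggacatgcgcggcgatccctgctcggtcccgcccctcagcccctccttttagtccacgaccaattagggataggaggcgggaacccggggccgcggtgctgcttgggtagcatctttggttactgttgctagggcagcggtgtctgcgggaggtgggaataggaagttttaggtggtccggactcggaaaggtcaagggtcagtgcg
Kif9: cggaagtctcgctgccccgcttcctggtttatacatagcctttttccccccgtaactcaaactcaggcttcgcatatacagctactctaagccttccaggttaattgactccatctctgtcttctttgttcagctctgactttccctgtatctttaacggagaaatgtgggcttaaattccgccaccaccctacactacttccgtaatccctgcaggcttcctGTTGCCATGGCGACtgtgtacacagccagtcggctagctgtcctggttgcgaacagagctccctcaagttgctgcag
For the next 3 genes, 60 bases around the motif are given (Kif18a, chr2:109280645-109280704, plus strand; Kif23, chr9:61946849-61946908, minus strand; Kif24, chr4:41464822-41464881, minus strand). The motif begins 70, 86 and 6 bases before the start, and Kif24 has the single arm alone.
Kif18a: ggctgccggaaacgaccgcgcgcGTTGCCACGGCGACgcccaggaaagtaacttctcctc
Kif23: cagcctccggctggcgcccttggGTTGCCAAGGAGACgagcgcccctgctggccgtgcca
Kif24: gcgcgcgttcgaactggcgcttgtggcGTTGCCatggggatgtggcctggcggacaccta

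Promoter entries were found for 33 of the 44 kinesins. Of these, 3 (9.09%) had the full motif, namely Kif9, Kif18a and Kif23, compared with 4% of all genes with an entry and 3.49% of all 32851 promoters. The single arm was found in 10 (30.3%), compared with 14.1% of all genes and 12.5% of all promoters. Kif1a, Kif2a, Kif3a, Kif3c, Kif16b and Kif17 had the single arm without the full motif and without a listed RFX2 peak. A match describes these exact letters only, and sequences close to a motif were not searched. A window without a match says nothing about binding elsewhere.

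Of the whole libraries, 8 had totals of 13574764 to 15193330 counts and Rfx2-/- replicate 1 had 28800855. Values below are CPM, read counts relative to library size after TMM adjustment, unless RPKM, the same per kilobase of exon, is named. Rfx2 itself had 471 to 624 CPM in wild type and 61.5 to 199 CPM in the knockout libraries, with a log2 fold change of -1.91, an SE of 0.28 and an adjusted p of 0.000781 in edgeR. The reads that remain can come from exons other than the deleted one. Rfx2-/- replicate 2 stood apart, because it had the lowest level among the 4 knockout libraries for 32 of the 43 kinesins. The study reports that Rfx2-/- spermatids arrest as round cells, before elongation. It places Tnp1 and Tnp2 mRNAs among transcripts already present late in the round stage. The mRNAs on the list named for elongating spermatids therefore need not come from elongating cells. Markers of that list were lower in Rfx2-/- testes, with all 10 below 0 (all genes 46.8%) at a median log2 fold change of -0.76. Of the 10, 5 were lower at an adjusted p of 0.05 in edgeR (all genes 7.31%), and none was at 0 counts. The summed level of these markers was 8515 CPM in wild type replicate 3 and 13097 to 18111 CPM in the other wild type libraries. It was 6773, 10882, 7822 and 7138 CPM in the Rfx2-/- libraries. Medians were 0.45 for meiotic prophase, 0.30 for round spermatid, -0.14 for late spermatocyte, 0.06 for spermatogonia, 0.16 for Sertoli cell, 0.20 for Leydig cell, -0.01 for peritubular myoid, 0.04 for macrophage and -0.23 for endothelial markers. Without Rfx2-/- replicate 2 the medians were -0.80 for elongating spermatid, 0.22 for meiotic prophase, 0.25 for round spermatid and -0.07 for late spermatocyte markers. They were -0.02 for spermatogonia, 0.17 for Sertoli cell, -0.13 for Leydig cell, 0.11 for peritubular myoid, 0.06 for macrophage and -0.02 for endothelial markers. Summed meiotic prophase markers were at 1349 to 1560 CPM in wild type and 1559, 2598, 1535 and 1737 CPM in Rfx2-/- libraries. The part of these markers in the kinesin results below was not tested. The study states that Tnp1 and Tnp2 mRNAs were not reduced. Here their log2 fold changes were -1.12 and -0.77 (edgeR adjusted p 0.0416 and 0.0927), and neither was called. From counts of whole testis alone, fewer cells of a type and less RNA per cell cannot be told apart.

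In wild type testes the kinesin levels per length spanned a wide range. Kif2b, a microtubule depolymerase of the kinesin-13 class, was highest at 294 ± 46.5 RPKM (SD, n = 5). It was followed by Kif17, a kinesin-2 homodimer, at 118 ± 19.8 RPKM, and by Kif2c, the mitotic depolymerase also called MCAK, at 99.9 ± 21.6 RPKM. Kif9, Kif27, Kifap3 and Kif3b lay at 94.4, 80.7, 79.4 and 68.6 RPKM, so that 7 kinesins exceeded 50 RPKM, and 5 of them (Kif17, Kif9, Kif27, Kifap3 and Kif3b) are on the list of axonemal and ciliary kinesins. At the other end 14 kinesins were under 5 RPKM, and Kif26b and Kif28 were at 0.122 and 0.0496 RPKM. Kif6 was in the lower part of the order at 5.71 ± 0.257 RPKM. Of 43 neighbouring pairs in this order, 34 had overlapping wild type libraries, and Kif2b did not overlap with Kif17.

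**Figure D1:**
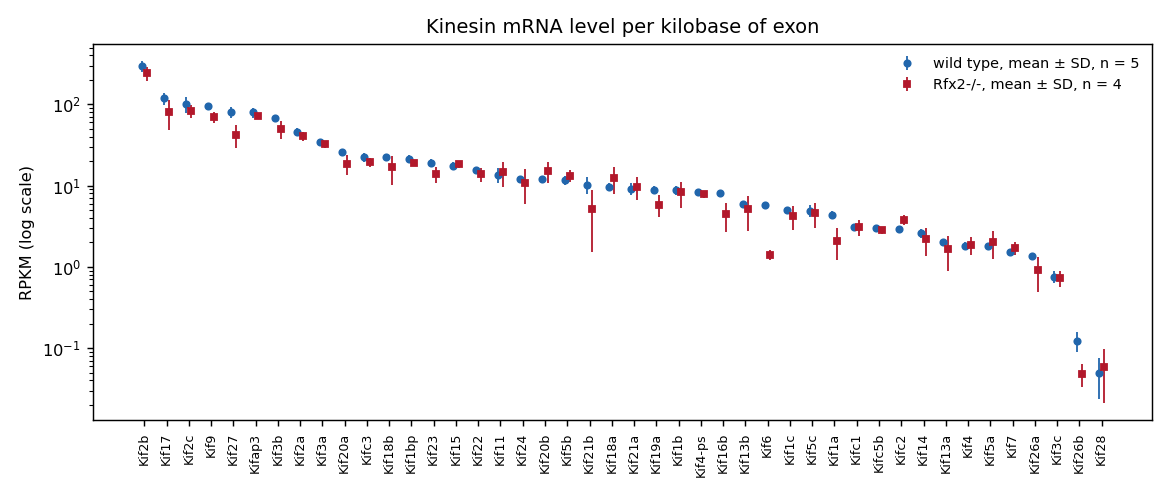
RPKM on a log axis for each of the 44 kinesins, in order of the wild type level, as mean ± SD of 5 wild type (circles) and 4 Rfx2-/- (squares) libraries. Kif2b was highest at 294 RPKM in wild type, and the means of Kif6 lie apart, at 5.71 RPKM in wild type and 1.41 RPKM in Rfx2-/- testes.

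Calls among kinesin mRNAs were few, as they were among all genes. Calls required more than a 2-fold change together with an adjusted p of at most 0.01. Of 43 kinesins, 1 was called lower (Kif6, 2.33%), beside 3.68% of all genes tested, and 0 were called higher, beside 0.826% of all genes. With no fold limit, and an adjusted p of 0.05, 5 kinesins were lower (11.6%, all genes 7.31%) and 0 higher (all genes 3.48%), the 5 being Kif6, Kif26b, Kif1a, Kif27 and Kif16b. With an unadjusted p under 0.05 in edgeR there were 11 lower (25.6%, all genes 13.7%) and 1 higher, Kifc2 (2.33%, all genes 13.9%). DESeq2 with the same limits called 3 of 44 lower (Kif6, Kif1a and Kif26b, 6.82%, all genes with an adjusted p 4.10%) and 0 higher (all genes 1.18%).

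The smaller differences were mostly downward. The log2 fold change was below 0 for 32 of 43 kinesins (74.4%, all genes 46.8%), with a median of -0.17 against 0.03 for all genes. All Rfx2-/- libraries lay below all wild type libraries for 9 kinesins (20.9%, all genes 9.70%), and above them for 0 (all genes 6.16%). Without Rfx2-/- replicate 2, which was left out after its values were seen, the median was -0.07 against 0.04 for all genes. In that setting 29 kinesins were below 0 (67.4%, all genes 45.1%) and 9 did not overlap (20.9%, all genes 11.6%), these being Kif6, Kif9, Kif1a, Kif16b, Kif19a, Kif20a, Kif26b, Kif27 and Kif3b, as with all libraries. The same 5 kinesins were lower at an adjusted p of 0.05. In wild type only Kif26b and Kif28 had fewer than 5 CPM on average.

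**Figure D2:**
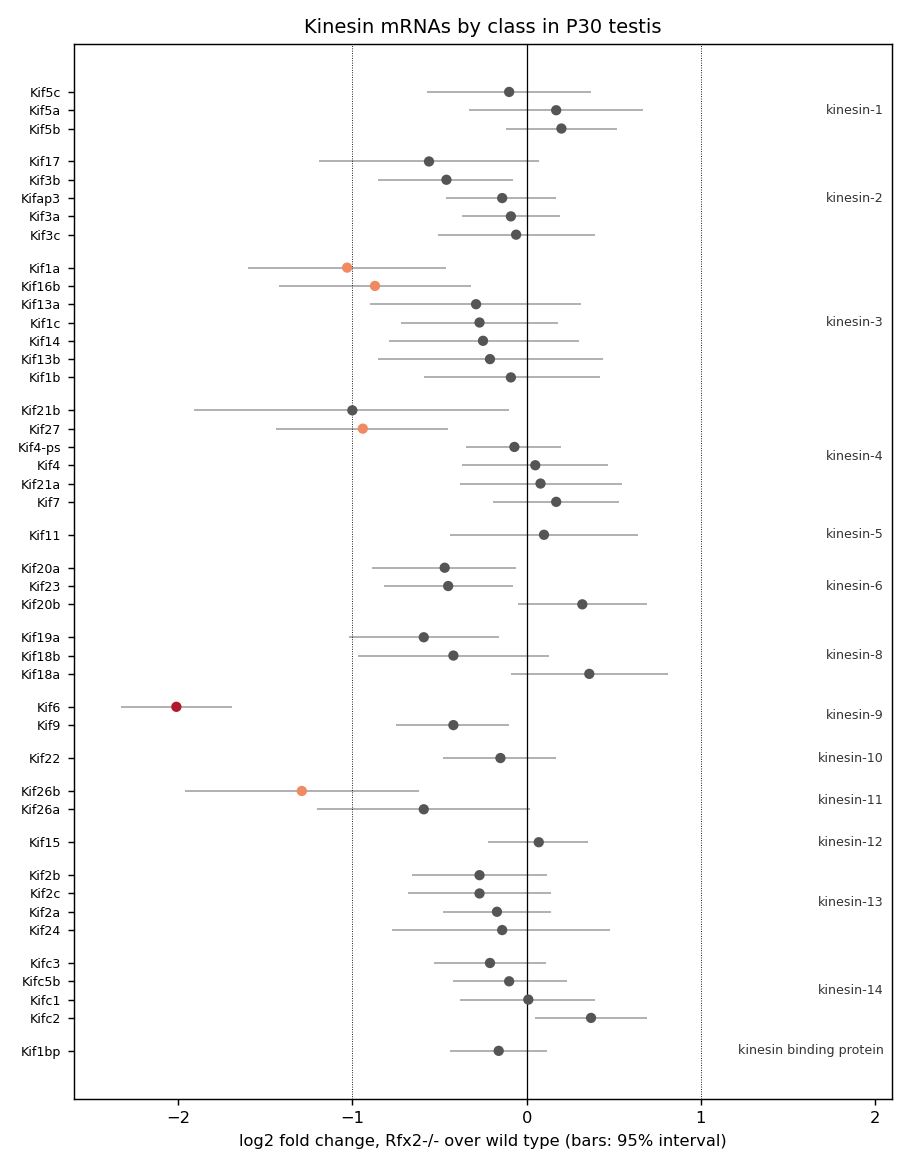
Log2 fold change of the 43 kinesins tested (points) with its 95% interval (bars) from edgeR, ordered by class, with dotted lines at a 2-fold change. Kif6 (dark red) is the only one called, at -2.01, and Kif1a, Kif16b, Kif27 and Kif26b (orange) were lower at an adjusted p of 0.05.

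Of the kinesin-9 class, whose members are motors of motile axonemes, Kif6 was sharply reduced and Kif9 was not called. Kif6 (ENSMUSG00000023999, GRCm38 chromosome 17, 49615136 to 49909847, plus strand) had 20.1, 19.0, 21.2, 20.9 and 19.6 CPM in the wild type libraries and 5.78, 4.15, 4.98 and 5.04 CPM in the Rfx2-/- libraries. Every knockout library lay far below every wild type library, and the spread within each genotype was small. The means were 20.16 ± 0.906 CPM (SD, n = 5) and 4.984 ± 0.668 CPM (SD, n = 4), so that 24.7% of the wild type level remained. The log2 fold change was -2.01 (SE 0.15, edgeR adjusted p 2.06e-06). It stayed between -2.06 and -1.88 over 15 alternative settings, was called in all 15, and passed a test against a 2-fold change (edgeR adjusted p 0.000125). Kif6 shared 0.2495% of its transcript sequence with another gene, and 1.757% of its exon bases overlap the antisense gene Gm16554. Kif6 lies 6.87 Mb from Rfx2 on the same chromosome, so DNA of the 129/Sv cells linked to the targeted allele cannot be told apart from the loss of RFX2 in its measured value.

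Kif9 (ENSMUSG00000032489, chromosome 9, 110476958 to 110525179, plus strand), whose promoter has the full X-box printed above, had 415, 418, 353, 400 and 444 CPM in wild type and 336, 238, 294 and 340 CPM in Rfx2-/- libraries. The genotypes did not overlap, but the highest knockout library was close to the lowest wild type library. The log2 fold change was -0.42 (SE 0.15, edgeR adjusted p 0.0898), and DESeq2 gave an adjusted p of 0.0268 at the same size. The change of the pair was unequal. The log2 ratio of Kif6 to Kif9 was -4.50 to -4.06 in wild type and -6.08 to -5.85 in Rfx2-/- libraries, a difference of -1.59. A two-sided exact permutation test gave p 0.0159, the smallest that 5 against 4 libraries can give. Adjusted over 3 pairs of related kinesins, the p of that test was 0.0159. The pairs were chosen after seeing the data, and the adjustment does not cover that choice for any of them.

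Kif27 and Kif7 of the kinesin-4 class are vertebrate relatives of the Hedgehog regulator Costal2, KIF7 acting at the tip of the primary cilium and KIF27 being linked to motile cilia. Kif27 (chromosome 13, 58287502 to 58359122, minus strand) had 390, 406, 324, 446 and 500 CPM in wild type and 272, 119, 236 and 233 CPM in Rfx2-/- libraries. All knockout libraries were lower, replicate 2 most of all. The mean in Rfx2-/- testes was 52% of wild type, with a log2 fold change of -0.94 (edgeR, SE 0.23, adjusted p 0.0193), under the 2-fold limit. Without Rfx2-/- replicate 2 it was -0.74 (edgeR adjusted p 0.00253), and the adjusted p exceeded 0.05 without wild type replicate 5 (0.055) or Rfx2-/- replicate 4 (0.0504). Exons of the opposite strand gene Gm26555 overlap 6.483% of its exon bases.

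Kif7 (chromosome 7) had 6.35, 7.43, 6.85, 7.67 and 6.63 CPM in wild type and 8.80, 5.95, 9.06 and 7.59 CPM in Rfx2-/- libraries. The genotypes overlapped, with a log2 fold change of 0.17 (95% interval -0.19 to 0.53), and 20.26% of its exon bases overlap genes on the other strand. The log2 ratio of Kif27 to Kif7 was 5.57 to 6.24 in wild type and 4.32 to 4.95 in Rfx2-/- libraries, a difference of -1.15 (two-sided exact permutation test, p 0.0159, adjusted over the 3 pairs 0.0159). Another kinesin-4 member, Kif21b, had 78.6, 123, 68.5, 89.4 and 111 CPM in wild type and 91.1, 12.2, 39.5 and 43.8 CPM in Rfx2-/- libraries. Its knockout libraries differed widely, and the log2 fold change had a 95% interval of -1.91 to -0.10 (SE 0.42, edgeR adjusted p 0.144). Without Rfx2-/- replicate 1, the library with 91.1 CPM, its adjusted p was under 0.05, with a log2 fold change of -1.53 (edgeR adjusted p 0.0147). Without Rfx2-/- replicate 2, the lowest, the values were -0.68 and 0.175 in edgeR, and the other omissions gave adjusted p-values of 0.161 to 0.265.

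Of the 5 kinesin-2 subunits 0 were called (all genes 3.68% lower and 0.826% higher), and their log2 fold changes ran from -0.56 to -0.06. KIF3A and KIF3B form the motor of intraflagellar transport with the accessory protein KAP3, the product of Kifap3. Kif3a had 111, 107, 114, 130 and 123 CPM in wild type and 119, 93.6, 111 and 116 CPM in Rfx2-/- libraries, which overlapped. Its log2 fold change was -0.09 (95% interval -0.37 to 0.19) and turned to 0.04 with total counts. Kif3b had 358, 360, 371, 414 and 431 CPM in wild type and 344, 196, 255 and 326 CPM in Rfx2-/- libraries. All knockout libraries were lower, by a small margin for replicate 1, and the log2 fold change was -0.46 (SE 0.17, edgeR adjusted p 0.113). The log2 ratio of Kif3b to Kif3a was 1.67 to 1.81 in wild type and 1.07 to 1.54 in Rfx2-/- libraries, a difference of -0.40 (two-sided exact permutation test, p 0.0159, adjusted over the 3 pairs 0.0159). It was -0.32 without Rfx2-/- replicate 2. Kif3b has 5.63 kb of exons, and its log2 fold change was -0.36 with a length trend removed from each library (edgeR adjusted p 0.0923). The part of transcript length in the ratio was not tested.

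Kifap3 had 295, 323, 259, 359 and 357 CPM in wild type and 265, 320, 280 and 288 CPM in Rfx2-/- libraries, with a log2 fold change of -0.14 (95% interval -0.46 to 0.17). Kif17 is a transport motor that in male germ cells is also known to bind ACT, a coactivator of the spermatid transcription factor CREM. It had 507, 511, 335, 491 and 529 CPM in wild type and 390, 127, 396 and 376 CPM in Rfx2-/- libraries. Wild type replicate 3 and Rfx2-/- replicate 2 lay apart from the others of their genotype, and the groups overlapped through the former. The log2 fold change was -0.56 (SE 0.29, edgeR adjusted p 0.231), and -0.29 without Rfx2-/- replicate 2.

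**Figure D3:**
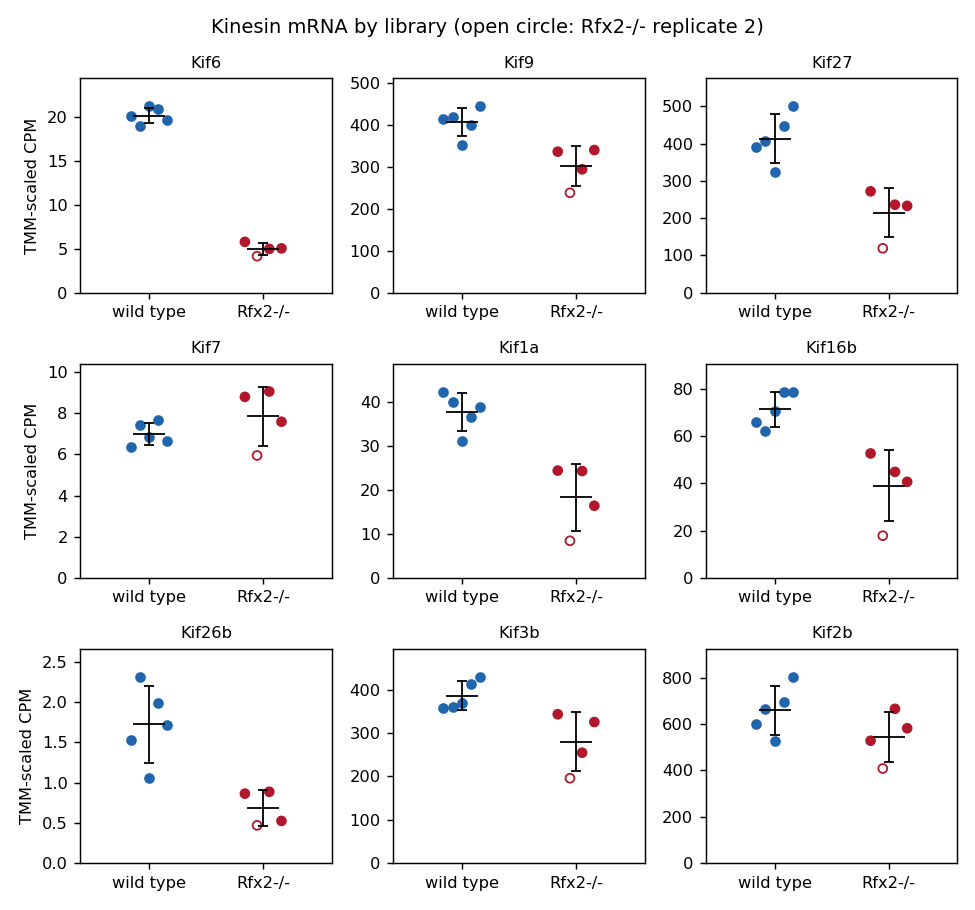
TMM-scaled CPM of 9 kinesins in each library, with the mean and SD per genotype, and Rfx2-/- replicate 2 as an open circle. Kif6 is the only one whose knockout libraries (4.15 to 5.78 CPM) sit together at 24.7% of the wild type mean, whereas Kif27, Kif1a and Kif16b are lower in all knockout libraries and lowest in replicate 2.

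Of the 10 axonemal and ciliary kinesins, 9 were below 0 (all genes 46.8%), with a median log2 fold change of -0.44. Of the 10, 1 was called lower (all genes 3.68%) and 0 higher (all genes 0.826%). The count below 0 was 8 and the median -0.31 without Rfx2-/- replicate 2. The remaining members of that list were Kif19a, a depolymerase that limits cilium length, and Kif24, which restrains ciliogenesis at the mother centriole. Kif19a had 38.1, 29.7, 29.3, 30.2 and 31.1 CPM in wild type and 24.5, 17, 14.4 and 28.1 CPM in Rfx2-/- libraries. All knockout libraries were lower, and the log2 fold change was -0.59 (SE 0.20, edgeR adjusted p 0.0776). Kif24 had 61.5, 70.4, 74.3, 73.9 and 67.0 CPM in wild type and 91.1, 23.2, 70.1 and 66.5 CPM in Rfx2-/- libraries. Its knockout libraries lay on both sides of wild type, and the log2 fold change of -0.14 turned to 0.13 without Rfx2-/- replicate 2.

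Among the 16 kinesins of vesicle and organelle transport, 12 were below 0 (all genes 46.8%), at a median of -0.21. Calls numbered 0 in either direction (all genes 3.68% lower and 0.826% higher). Without Rfx2-/- replicate 2 there were 9 below 0 (all genes 45.1%) and the median was -0.03. With all libraries, 3 of the 16 were lower at an adjusted p of 0.05 in edgeR (all genes 7.31%), namely Kif1a, Kif16b and Kif26b. Kif26b was counted in this list although it is of a divergent class and near the limit of detection. All 7 members tested of the kinesin-3 class, which holds Kif1a and Kif16b, were below 0, at a median of -0.27. Without Rfx2-/- replicate 2 there were 5 below 0, at a median of -0.05, with Kif1b at 0.13 and Kif13b at 0.07. Kif1b was also at 0.14 with a length trend removed. Kif1a (chromosome 1, 93015464 to 93101951, minus strand) is a neuronal carrier of synaptic vesicle precursors and had 42.4, 39.9, 31.1, 36.6 and 38.8 CPM in wild type and 24.4, 8.42, 24.3 and 16.4 CPM in Rfx2-/- libraries. The genotypes did not overlap. Its log2 fold change was -1.03 (SE 0.26, edgeR adjusted p 0.0251), and DESeq2 called it (adjusted p 0.00192). It was -0.79 without Rfx2-/- replicate 2 (edgeR adjusted p 0.00246). Leaving out wild type replicate 1, 2, 4 or 5 or Rfx2-/- replicate 4 raised the edgeR adjusted p above 0.05, to between 0.0518 and 0.0829.

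Kif16b (chromosome 2, 142617474 to 142901531, minus strand) moves early endosomes and had 66.1, 62.3, 70.4, 78.8 and 78.8 CPM in wild type and 52.6, 17.8, 44.8 and 40.6 CPM in Rfx2-/- libraries. Again no library overlapped, and the log2 fold change was -0.87 (SE 0.25, edgeR adjusted p 0.0455). It was -0.63 without Rfx2-/- replicate 2 (edgeR adjusted p 0.00294). The edgeR adjusted p exceeded 0.05 with total counts (0.0631), without any single wild type library (0.0726 to 0.104) and without Rfx2-/- replicate 3 (0.0754) or 4 (0.101). Kif26b, an atypical kinesin of the kinesin-11 class known for its role in kidney development, was near the limit of detection, with 1.53, 2.32, 1.06, 1.99 and 1.72 CPM in wild type and 0.863, 0.468, 0.886 and 0.523 CPM in Rfx2-/- libraries. Its groups did not overlap, and the log2 fold change was -1.29 (SE 0.31, edgeR adjusted p 0.0178). The adjusted p exceeded 0.05 in edgeR without wild type replicate 2 (0.052) or Rfx2-/- replicate 4 (0.0607). Exons of Gm16564 on the other strand overlap 6.417% of its exon bases.

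In the opposite direction, Kifc2, a minus-end motor of the kinesin-14 class, had 11.3, 10.9, 10.4, 9.44 and 9.59 CPM in wild type and 15.7, 13.3, 11.3 and 12.9 CPM in Rfx2-/- libraries. Replicate 3 of the knockout reached the highest wild type value at the precision given, and the log2 fold change of 0.37 did not pass (SE 0.15, edgeR adjusted p 0.13). Kif5b, the ubiquitous heavy chain of conventional kinesin, overlapped between genotypes, with 64.2 to 84.7 CPM in wild type and 65.5 to 94.6 CPM in Rfx2-/- libraries and a log2 fold change of 0.20 (95% interval -0.12 to 0.52). Kifc3, which has an RFX2 promoter peak, had 83.1 to 115 CPM in wild type and 73.7 to 100 CPM in Rfx2-/- libraries. The log2 fold change was -0.21 (95% interval -0.53 to 0.11), and 22.82% of its exon bases overlap genes on the other strand.

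The spindle and cytokinesis kinesins as a group differed little, with 8 of 14 below 0 (all genes 46.8%) and a median of -0.12. Of the 14, 0 were called in either direction (all genes 3.68% lower and 0.826% higher). The count below 0 was 9 and the median -0.04 without Rfx2-/- replicate 2. The kinesin-13 depolymerase Kif2b had 601, 665, 527, 697 and 805 CPM in wild type and 528, 408, 666 and 582 CPM in Rfx2-/- libraries, with overlap between the genotypes and a log2 fold change of -0.27 (95% interval -0.66 to 0.12). Kif2c had 223 to 413 CPM in wild type and 236, 337, 248 and 235 CPM in Rfx2-/- libraries, with a log2 fold change of -0.27 (95% interval -0.68 to 0.14). Kif2b, Kif2c and Kif17 are the kinesins on the study's list of CREM-bound and CREM-dependent genes. Of these 3, 0 were called (all genes 3.68% lower and 0.826% higher), at a median of -0.27.

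The kinesin-6 class, motors of the central spindle and cytokinesis, lay on both sides of 0. Kif20a had 98.6 to 109 CPM in wild type and 89.3, 44.1, 84.8 and 85.9 CPM in Rfx2-/- libraries, which did not overlap. Its log2 fold change was -0.47 (SE 0.19, edgeR adjusted p 0.135) and -0.28 without Rfx2-/- replicate 2, and 31.11% of its exon bases overlap Cdc23 on the other strand. Kif23 had 55.1 to 74.7 CPM in wild type and 54.0, 32.7, 48.7 and 56.0 CPM in Rfx2-/- libraries, with a log2 fold change of -0.45 (edgeR, SE 0.17, adjusted p 0.113). The groups overlapped through Rfx2-/- replicate 4 alone. Kif20b, in contrast, had 63.2 to 71.5 CPM in wild type and 71, 122, 73.1 and 75.8 CPM in Rfx2-/- libraries, with replicate 2 the highest. Its log2 fold change was 0.32 (SE 0.17, edgeR adjusted p 0.238) and 0.10 without that library.

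The other spindle motors named here overlapped between genotypes. Kif18a, which damps chromosome movements, had 27.1 to 36.1 CPM in wild type and 29.6, 63.8, 33.7 and 39.4 CPM in Rfx2-/- libraries, with a log2 fold change of 0.36 (95% interval -0.09 to 0.81) and of 0.08 without Rfx2-/- replicate 2. Kif11, the bipolar kinesin-5, had 51.2 to 82.9 CPM in wild type and 35.3 to 90.7 CPM in Rfx2-/- libraries, and its log2 fold change of 0.10 (95% interval -0.44 to 0.64) turned to -0.05 without Rfx2-/- replicate 2. Kif15 (0.07, 95% interval -0.22 to 0.35) and Kif22 (-0.15, 95% interval -0.48 to 0.17) were likewise within error. Kifc1 and Kifc5b, kinesin-14 genes that share 39.75% and 37.44% of their transcript sequence with each other and with a predicted gene, had log2 fold changes of 0.01 and -0.10, and both changed sign with some settings. Only reads mapped to 1 position were kept, so reads from the shared parts would be lost. The levels of both genes may be too low and are uncertain. Kif1bp had a log2 fold change of -0.16 (95% interval -0.44 to 0.12).

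Of the 6 kinesins on the list of RFX2 promoter peaks, 5 were below 0 (all genes 46.8%), with a median of -0.32. Of the 6, 1 was called lower (Kif6, all genes 3.68%) and 0 higher (all genes 0.826%). The count below 0 was 4 and the median -0.21 without Rfx2-/- replicate 2. The 3 of them with a full X-box, Kif9, Kif18a and Kif23, had log2 fold changes of -0.42, 0.36 and -0.45. Kif6, with no exact match to either motif in the promoter printed above, had the largest change of all kinesins tested.

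The low values of Rfx2-/- replicate 2 moved with transcript length. The median log2 deviation of the kinesins from the wild type mean was -0.62 in that library and -0.02, -0.12 and -0.13 in replicates 1, 3 and 4. For the 9 kinesins with over 7 kb of exons it was -1.42 in replicate 2, against -0.01, 0.01 and -0.53 in the others, and all genes over 7 kb had a median of -0.81 there. Kinesins under 4 kb were at -0.43 in replicate 2, whereas all genes under 4 kb were at 0.25. Kif1a and Kif16b have 8.74 and 8.81 kb of exons, and with a length trend removed from each library their log2 fold changes were -0.93 (edgeR adjusted p 0.00181) and -0.75 (edgeR adjusted p 0.00305). Kif6 has 3.53 kb of exons and was at -1.72, -2.15, -1.91 and -1.90 in the 4 knockout libraries, with -1.98 after removal of the trend. What sets replicate 2 apart was not tested.

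**Figure D4:**
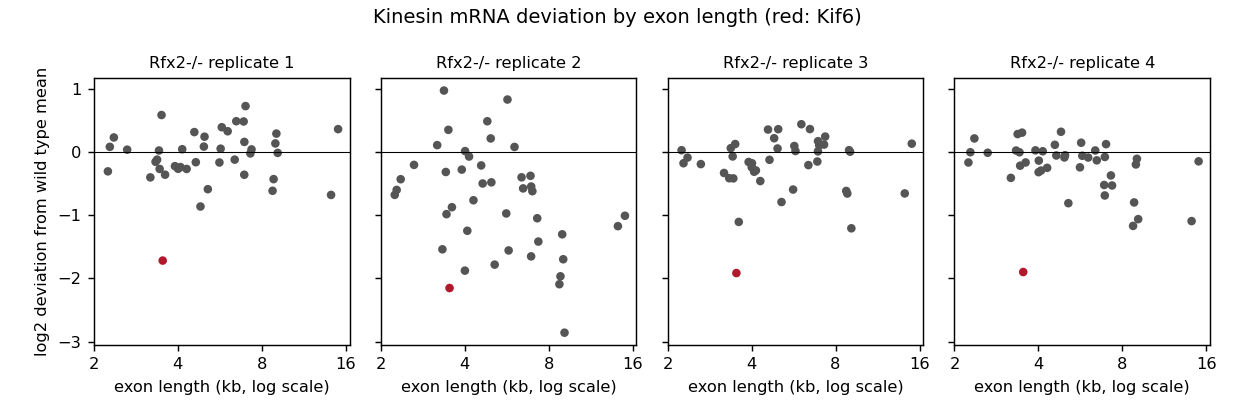
Log2 deviation of each kinesin from its wild type mean against exon length in kb (log axis), with 1 panel per Rfx2-/- library and Kif6 in red. Kif6 lies between -2.15 and -1.72 in every panel, while kinesins over 7 kb lie low in replicate 2, at a median of -1.42.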

How the data were processed

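The authors deposited raw read counts per gene for the 9 libraries. Per their notes and methods, single reads from TruSeq libraries were handled with CASAVA 1.8.2, mapped to GRCm38 (Ensembl release 70) with STAR 2.4, kept when mapped to 1 position, and counted with featureCounts 1.4.6 over merged exons of the coding isoforms of each gene, without reads that overlap several genes. Other passages name Bowtie and another read length, and the use of strand is not given in the sources used here, so antisense overlaps are stated per gene. Columns of no known sample numbered 0. Groups were taken from the genotype labels. Each library is 1 mouse, and replicate numbers follow deposition order and pair no animals.

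Symbols were taken from GENCODE M21, which held 96.62% of the gene IDs. Genotypes were compared with the quasi-likelihood test of edgeR 4.0.16 in R 4.3.3 (TMM, filterByExpr, robust), adjusted by Benjamini-Hochberg over 15613 genes. CPM and RPKM values were computed from the counts and merged exon lengths of M21, and library deviations are log2 of CPM + 0.5. In simulated counts for this comparison over 15613 genes, 100% of 100 genes changed 4-fold and 99% of 100 changed 8-fold were recovered. False calls numbered 1. The changed genes were drawn among those with an expected count of at least 50. Smaller changes, changes at lower counts and a library shifted by transcript length were not simulated. A count of 0 allows up to 3 counts (0.0996 to 0.234 CPM per library), which covers counting error only. Shared sequence was counted in windows of 50 bases. Named kinesins were those at an adjusted p of 0.05, members with known roles in cilia, spindle or spermatids or with an RFX2 peak, and the largest change of each class. Kif1b, Kif4, Kif4-ps, Kif13b, Kif20b and Kif28 were named in addition. The members, lists, markers and rules were chosen with earlier results of these data known. Alternatives were other scalings, DESeq2 1.42.0, other filters and limits, a length trend per library, and omission of each library.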

Additional observations from a re-analysis of the deposited data

Results flagged for a closer look

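Within each genotype, the highest or lowest library of each of 28 named kinesins was compared with its nearest neighbour by Dixon's gap ratio. Of 56 groups tested, 6 had a library apart from the others, where chance flags about 1 in 20, or 2.8, and 3 of the 6 were in Rfx2-/- replicate 2.

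In that library Kif17 had 127 CPM (376 to 396 in the other knockout libraries), Kif20a had 44.1 CPM (84.8 to 89.3) and Kif2c, the high one, had 337 CPM (235 to 248). In wild type replicate 3 Kif17 had 335 CPM (491 to 529 in its group otherwise) and Kif22 had 33 CPM (35.3 to 36.2). In wild type replicate 1 Kif19a had 38.1 CPM (29.3 to 31.1).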

How the results depend on the processing

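No paired analysis was done because the labels name no pairs of animals. The study took age-matched littermates where it could, and the labels do not say which of these mice were littermates. With all libraries 1 kinesin was called lower, compared with 3 by the DESeq2 Wald test (Kif6, Kif1a and Kif26b) and 5 with no fold limit and an adjusted p of 0.05. Under every other setting, including each omitted library, the count was 1 lower, and it was 0 higher under all settings. At an adjusted p of 0.05 the lower count ran from 2 (without Rfx2-/- replicate 4, wild type replicate 2 or wild type replicate 5) over 3 (without wild type replicate 1 or 4) to 6 without Rfx2-/- replicate 1 and 7 by DESeq2, and Kif6 was in it under each setting. The median log2 fold change of -0.17 ran from -0.22 to -0.07 over omitted libraries, the latter without Rfx2-/- replicate 2. Total counts shifted the median of all genes by 0.13, to 0.16, and that of the kinesins to -0.04. The direction of Kif3a and Kifc5b turned there (both 0.04), that of Kif11 (-0.05) and Kif24 (0.13) without Rfx2-/- replicate 2 (ranges over omitted libraries -0.05 to 0.35 and -0.35 to 0.13), and that of Kifc1 with the length trend removed (-0.03) and with several omitted libraries (-0.05 to 0.14). The cause was not tested. The adjusted p of Kif6 ran from 1.29e-36 to 3.86e-05. Omitting single libraries left the differences of the paralogue ratios between -1.63 and -1.52 (Kif6 to Kif9), -1.22 and -1.01 (Kif27 to Kif7) and -0.47 and -0.32 (Kif3b to Kif3a).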

Other observations

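Genes that work with kinesins were examined next. Of 18 kinesin light chains, adaptors and cargo factors tested, 13 were below 0 (all genes 46.8%), at a median log2 fold change of -0.04. In edgeR 0 were called (all genes 3.68% lower and 0.826% higher). At an unadjusted p under 0.05 in edgeR, 1 was lower (all genes 13.7%) and 1 higher (all genes 13.9%). An adjusted p of 0.05 was passed by 0 (all genes 7.31% lower and 3.48% higher). Omission of Rfx2-/- replicate 2 left 6 below 0, at a median of 0.07. Among them Klc3, a light chain found in the sperm tail, was at 22.6 ± 6.03 CPM in the 5 wild type libraries and 18.8 ± 5.30 CPM in the 4 knockout libraries (mean ± SD), with a log2 fold change of -0.26 (SE 0.24). Plekhm2, which links lysosomes to kinesin-1, had 162 ± 25.0 and 105 ± 32.8 CPM and differed by -0.63 on the log2 scale (edgeR, SE 0.22, adjusted p 0.0945). Fhl5, the coactivator ACT that KIF17 binds, had 161 ± 33.5 and 158 ± 57.4 CPM and differed by -0.03 on the log2 scale (SE 0.24). Of 18 spindle partners 14 were below 0 (all genes 46.8%), with a median of -0.21. Of the 18, 0 were called (all genes 3.68% lower and 0.826% higher). At an unadjusted p under 0.05 in edgeR 0 were lower (all genes 13.7%) and 2 higher (all genes 13.9%), Bub1 and Nusap1. Their log2 fold changes were 0.66 and 0.53. Omission of Rfx2-/- replicate 2 left 10 below 0, at a median of -0.06. The kinesins with other symbols were Cenpe, the kinetochore motor, at a log2 fold change of 0.04 (SE 0.20), and Stard9, a long centrosomal kinesin, at -0.67 (edgeR, SE 0.40, adjusted p 0.291).

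Kif4 and its transcribed pseudogene were chosen after their values were seen. Kif4, a chromosome-arm motor encoded on chromosome X (100625737 to 100727214), had 9.94, 8.98, 10.2, 8.04 and 7.88 CPM in wild type libraries. Kif4-ps, a single-exon copy on chromosome 12 (101145614 to 101149758), had 31.1, 33.1, 36.3, 37.0 and 34.3 CPM in the same libraries. Per length the copy was 4.59 times as high as Kif4 (3.76 to 5.54 over the wild type libraries), and in Rfx2-/- libraries 4.21 times (2.88 to 6.24). Neither differed between genotypes beyond its error, with log2 fold changes of 0.05 (95% interval -0.37 to 0.47) and -0.07 (95% interval -0.35 to 0.20). The copy shared 0.3662% of its sequence with Kif4 in windows of 50 bases, and 16.7% of the exon bases of Kif4 overlap Pdzd11 on the other strand.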
